A study of Mus musculus with 4 samples.

Results

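The VEGF (vascular endothelial growth factor) family was described across 4 RNA sequencing libraries labelled as tumor-associated macrophages (TAMs). The members were the 10 genes of 54532 in the deposited count table whose Ensembl mouse identifiers map to 5 ligands (*Vegfa*, *Vegfb*, *Vegfc*, *Vegfd* and *Pgf*), 3 receptor tyrosine kinases (*Flt1*, *Kdr* and *Flt4*) and 2 neuropilins (*Nrp1* and *Nrp2*), and all 10 passed the expression filter. TAMs were taken with magnetic beads against CD11b and F4/80 from tumors of NB9464, a mouse neuroblastoma cell line that carries *MYCN* amplification. Mice on the C57BL/6 background, 4 to 6 weeks old at injection, had received NB9464 cells under the skin, and tumors were collected on day 40 with no treatment given. The comparison was between genotypes, with 2 libraries each. Mice labelled SYK KO carry floxed *Syk* and a Cre recombinase driven by the lysozyme M gene, which is active in granulocytes as well as in macrophages, and mice labelled SYK WT are their controls, whose alleles are not given in the sources used here. The labels name M7 and M8 as SYK WT and M9 and M10 as SYK KO. One line of the labels names bone marrow-derived macrophages as the source of RNA and the title of the series names an adoptive transfer experiment. No source used here says whether the libraries of a genotype came from separate mice, so p-values measure the spread between these libraries, which may be technical.

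VEGF ligands are secreted dimers that bind receptor tyrosine kinases, mainly on endothelial cells, and drive the growth and permeability of vessels. *Vegfa* is the principal ligand of blood vessel growth and binds the products of *Flt1* and *Kdr*. Among the receptor kinases, the products of *Vegfb* and *Pgf* (placental growth factor) bind only Flt1. *Vegfc* and *Vegfd* encode the ligands of Flt4, the receptor of lymphatic endothelium. Neuropilins lack a kinase and act as co-receptors both for VEGF ligands and for secreted semaphorins. In tumors, macrophages are a well-known source of *Vegfa*, whose transcription rises in hypoxia through HIF (hypoxia-inducible factor).

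To show the regulatory sequence next to the genes that carried the opposite changes described below, the 250 bases before the annotated RefSeq start (GRCm38.p6) are printed 5′ to 3′ for *Vegfa*, its receptor gene *Flt1*, the second ligand of that receptor *Vegfb*, and the co-receptor gene *Nrp1*. Capitals mark matches on either strand to the HIF core motif (ACGTG or GCGTG, or their reverse complements CACGT and CACGC) or to the GC box (GGGCGG or its reverse complement CCGCCC). Adjacent or overlapping matches form one run of capitals.
Vegfa (chr17:46032378-46032627, minus strand): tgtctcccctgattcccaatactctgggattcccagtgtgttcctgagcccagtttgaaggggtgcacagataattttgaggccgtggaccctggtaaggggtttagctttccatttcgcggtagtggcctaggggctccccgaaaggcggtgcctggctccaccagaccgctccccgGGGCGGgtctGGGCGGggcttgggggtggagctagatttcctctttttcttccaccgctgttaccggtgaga
Flt1 (chr5:147726012-147726261, minus strand): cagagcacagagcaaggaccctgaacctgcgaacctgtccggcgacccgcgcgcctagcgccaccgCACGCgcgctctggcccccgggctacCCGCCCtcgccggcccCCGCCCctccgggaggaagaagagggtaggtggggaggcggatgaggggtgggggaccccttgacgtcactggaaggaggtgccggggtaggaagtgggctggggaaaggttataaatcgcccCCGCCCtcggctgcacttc
Vegfb (chr19:6987652-6987901, minus strand): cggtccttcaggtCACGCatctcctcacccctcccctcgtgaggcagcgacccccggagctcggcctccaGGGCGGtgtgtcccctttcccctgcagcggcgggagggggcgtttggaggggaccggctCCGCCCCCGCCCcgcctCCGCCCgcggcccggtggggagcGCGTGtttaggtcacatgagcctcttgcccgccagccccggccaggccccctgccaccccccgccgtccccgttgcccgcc
Nrp1 (chr8:128358823-128359072, plus strand): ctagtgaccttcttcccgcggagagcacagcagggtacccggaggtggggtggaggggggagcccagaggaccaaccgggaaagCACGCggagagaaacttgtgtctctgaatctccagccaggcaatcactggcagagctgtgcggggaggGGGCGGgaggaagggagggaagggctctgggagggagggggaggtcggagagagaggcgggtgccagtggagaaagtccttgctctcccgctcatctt
The *Vegfa* window printed held 0 HIF core matches and 2 GC boxes, the *Flt1* window 1 and 3, the *Vegfb* window 2 and 4, and the *Nrp1* window 1 of each. A second RefSeq start of *Vegfa* has a window, not printed because it overlaps annotated exons, with 2 HIF core matches and 1 GC box. The HIF core occurred in 38.6% and the GC box in 32.7% of 32851 windows of the same length over all genes. Among the 12 windows of the 10 members, 7 held the HIF core and 10 held the GC box. The bases G and C made up 59.2% to 76.4% of the members' windows, except for *Vegfd* at 42.4%. The windows over all genes were not matched for base composition, so these counts do not show that the family is enriched for either motif. The *Nrp1* window lies within the gene as GENCODE annotates it, downstream of its earliest start. These matches describe letters in a window of 250 bases and do not show binding.

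The libraries were first checked against their labels. Total counts ran from 20755886 to 23518045, and the detection limit of 3 counts was 0.109 to 0.163 CPM (read counts relative to the TMM-normalised library total), which allows for counting error alone. *Syk* stood at 27.9 and 23.2 CPM in M7 and M8 and at 196 and 160 CPM in M9 and M10, against the direction of the labels (log2 fold change 2.80, with 0.01 when scaled to macrophage markers and -0.87 when scaled to pan-leukocyte markers), so groups are called the libraries labelled SYK WT and SYK KO throughout. A gene-level count cannot show whether the floxed exon of *Syk* was lost. *Lyz2*, the gene that drives Cre, was at 296 and 208 CPM in M7 and M8 and at 8.64 and 20.2 CPM in M9 and M10. Its log2 fold change was -4.13, with -6.76 when scaled to macrophage markers and -7.68 when scaled to pan-leukocyte markers. *Lyz2* was thus lower in the libraries labelled SYK KO under each of these scalings. Whether the labels were exchanged was not tested. Every macrophage marker (10 genes) had at least 250 counts in each library, and their summed level was 971 and 670 CPM in the libraries labelled SYK WT against 8001 and 5080 CPM in those labelled SYK KO. The 8 fibroblast markers summed to 12377 and 14266 CPM against 4027 and 4898 CPM. Most of this came from the collagen genes *Col1a1* (5662 and 6641 CPM in M7 and M8) and *Col3a1* (6158 and 7118 CPM). No other fibroblast marker exceeded 248 CPM. In M7 and M8 the fibroblast sum lay above the macrophage sum only through these collagen genes. The lists differ in length, however, with 8 fibroblast and 10 macrophage genes. The geometric mean of the fibroblast markers, collagen genes included, was 171 and 189 CPM in M7 and M8. That of the macrophage markers was 76.4 and 52.2 CPM. Blood endothelial markers (12 genes) summed to 303 and 301 CPM against 231 and 210 CPM, and pericyte markers (7 genes) to 682 and 673 CPM against 176 and 240 CPM. Mitochondrial genes took 2.20% to 15.9% of the counts, with M9 at 6.00% and M10 highest. Annotated ribosomal RNA genes together with ribosomal RNA-like genes (*Gm42418*, *Gm26917* and *Lars2*) took 2.06% to 8.70%. The 6 pan-leukocyte markers summed to 245 and 184 CPM against 3001 and 2223 CPM. Among neuroblastoma markers, the catecholamine synthesis genes *Th* and *Dbh* had 0 counts in every library, and of the 3 tested 1 was called. These were *Hand2* (3666 to 7403 counts, log2 fold change -0.28, adjusted p = 0.418), *Gata3*, also a T cell gene (5 to 40 counts, 2.82, adjusted p = 0.0247), and *Chga* (3 to 59 counts, 2.80, adjusted p = 0.0668). In bulk libraries, fewer cells of a type and less RNA per cell cannot be told apart.

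To ask how the VEGF family differed with genotype, counts of 16451 genes were fitted together (edgeR quasi-likelihood, p-values adjusted after Benjamini and Hochberg). The family split into opposite directions. *Vegfa*, *Vegfd*, *Flt1* and *Kdr* were lower in the libraries labelled SYK KO, and their sign was the same under all 14 alternatives tried. *Vegfb*, *Pgf*, *Nrp1* and *Nrp2* were higher in the same libraries, except that all 4 were lower when libraries were scaled to macrophage or pan-leukocyte markers. With TMM normalisation 8 of 10 members thus had an adjusted p under 0.05, 4 higher and 4 lower, where 39.4% of all genes tested did (22.7% higher and 16.7% lower). With library size only, 2 members were higher and 5 lower, and over all genes 1677 were higher and 5411 lower against 3729 and 2747 with TMM. For 9 members the libraries of the genotypes did not overlap, against 75.2% of all genes tested. Both libraries labelled SYK KO lay above both others for 4 members (38.0% of all genes) and below them for 5 (37.2%). The median log2 fold change was -0.50 over the members and 0.02 over all genes tested. Leaving out a single library turned the sign of no member but *Vegfc*, whose log2 fold change ran from -1.18 to 0.46. Fits without M7 or without M8 called fewer of all genes in both directions than the full fit. A member's call lost in those fits is to be read beside that fall and is not particular to the family.

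**Figure D1:**
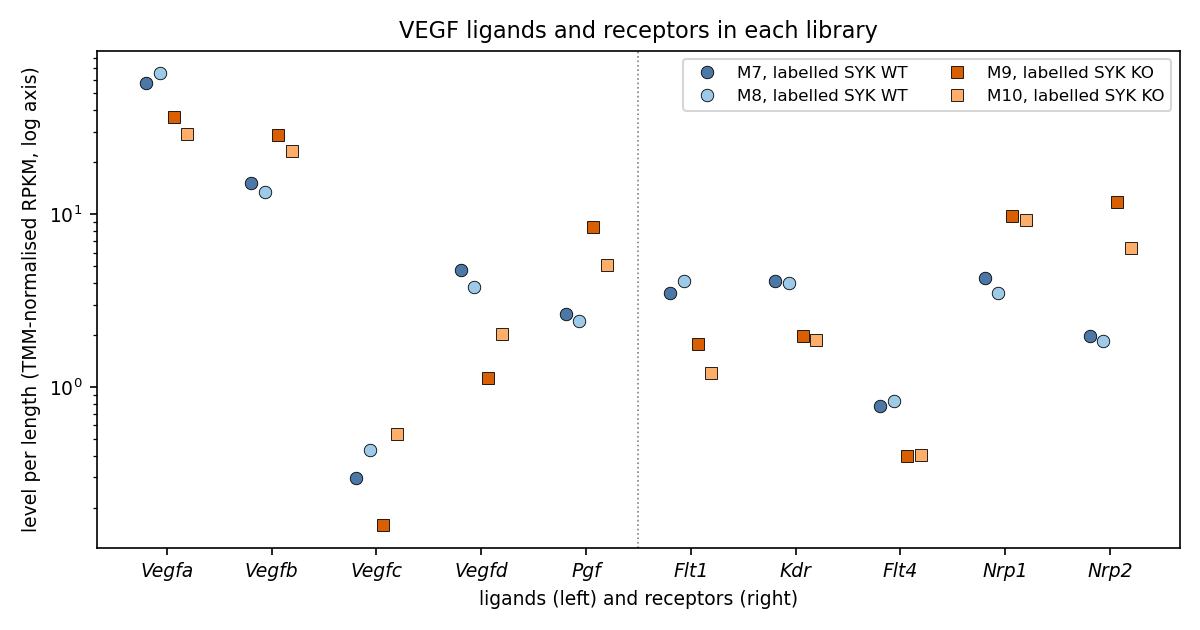
Level per length of each VEGF ligand and receptor gene (TMM-normalised RPKM, log axis), with 1 point per library, circles for the 2 libraries labelled SYK WT and squares for the 2 labelled SYK KO. *Vegfa* was the highest member in every library, from 29.0 to 65.3 RPKM, and *Vegfc* or *Flt4* the lowest.

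Gene positions are given on GRCm38 as GENCODE annotates them. Among the ligands, *Vegfa* (ENSMUSG00000023951, chromosome 17 from 46016993 to 46032369) was at 247 CPM in M7, 280 CPM in M8, 156 CPM in M9 and 124 CPM in M10. Both libraries labelled SYK KO lay below both labelled SYK WT. The log2 fold change was -0.91 (SE 0.187, adjusted p = 0.0119), a level 1.88-fold higher in the libraries labelled SYK WT. Without M8 it was -0.83 (adjusted p = 0.105), and scaled to 12 blood endothelial markers it was -0.17 (adjusted p = 0.447). Relative to those markers, *Vegfa* was 14.0 and 15.8 times their geometric mean in M7 and M8 and 13.8 and 12.7 times in M9 and M10. Relative to the fibroblast markers the genotypes overlapped, with 1.44 and 1.48 times their geometric mean in M7 and M8 and 1.94 and 1.26 times in M9 and M10. Relative to the macrophage markers, it was 3.23 and 5.36 times in M7 and M8 and 0.290 and 0.349 times in M9 and M10. The part of these markers in the difference was not tested.

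*Vegfb* (ENSMUSG00000024962, chromosome 19 from 6982473 to 6987651) encodes a ligand with weak angiogenic activity that is best known in heart and fat tissue. Its level was 24.4 CPM in M7, 21.4 CPM in M8, 46.3 CPM in M9 and 37.2 CPM in M10, so the libraries labelled SYK KO were both above the others. The log2 fold change was 0.86 (SE 0.187, adjusted p = 0.0140), but it was 0.34 (adjusted p = 0.263) with library size only and -1.94 (adjusted p = 0.000306) when scaled to the macrophage markers. The call was also lost without M7 (adjusted p = 0.0608) and without M8 (adjusted p = 0.149).

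*Pgf* (ENSMUSG00000004791, chromosome 12 from 85166635 to 85177790), the other ligand with Flt1 as its only receptor kinase, was at 7.69 CPM in M7, 7.04 CPM in M8, 24.4 CPM in M9 and 14.7 CPM in M10. Both libraries labelled SYK KO were higher and differed more from each other than the other pair did. The log2 fold change was 1.41 (SE 0.302, adjusted p = 0.0135), with 0.89 (adjusted p = 0.0771) for library size only, 1.34 (adjusted p = 0.0759) without M8 and -1.44 (adjusted p = 0.0166) when scaled to the macrophage markers. Thus *Vegfb* and *Pgf* moved in the opposite direction to *Vegfa* with TMM normalisation, though not when scaled to macrophage or pan-leukocyte markers.

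*Vegfd* (ENSMUSG00000031380, chromosome X from 164373378 to 164402650) was at 11.5 CPM in M7, 9.07 CPM in M8, 2.72 CPM in M9 and 4.90 CPM in M10, with no overlap between genotypes. Its log2 fold change was -1.43 (SE 0.382, adjusted p = 0.0272), and the call was lost without M7 (-1.25, adjusted p = 0.182), without M8 (-1.60, adjusted p = 0.0922) and when scaled to endothelial markers (-0.66, adjusted p = 0.255). *Vegfc* (ENSMUSG00000031520, chromosome 8 from 54077606 to 54187096) had 20 and 26 counts in M7 and M8 and 8 and 24 in M9 and M10. Its 2 libraries labelled SYK KO, at 0.388 and 1.31 CPM, enclosed both labelled SYK WT, and no difference was detectable at this depth (log2 fold change -0.08, SE 0.772, adjusted p = 0.943).

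**Figure D2:**
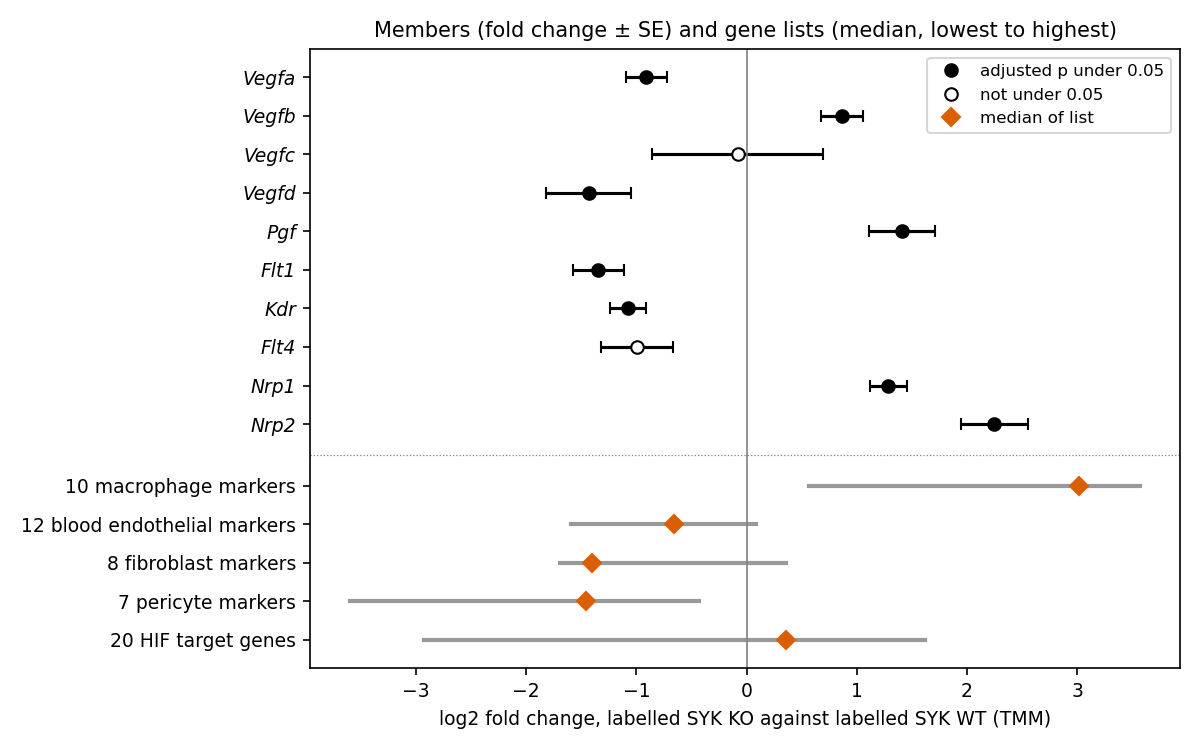
Log2 fold change of each member, labelled SYK KO against labelled SYK WT, with its standard error (filled points have an adjusted p under 0.05), above the median (diamond) and the lowest to highest value (grey bar) of 5 gene lists, with TMM normalisation. *Nrp2* was furthest to the right at 2.25 and *Vegfd* furthest to the left at -1.43, and the signs of *Vegfb*, *Pgf*, *Nrp1* and *Nrp2* turned when libraries were scaled to macrophage or pan-leukocyte markers.

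The receptor kinases of blood endothelium fell together. *Flt1* (ENSMUSG00000029648, chromosome 5 from 147561604 to 147726011) encodes a high-affinity receptor with weak kinase activity that also occurs as a soluble decoy and is expressed by monocytes, and counts per gene do not separate its forms. It was at 47.2 CPM in M7, 55.3 CPM in M8, 24.0 CPM in M9 and 16.3 CPM in M10. The libraries labelled SYK KO were both lower, by a log2 fold change of -1.34 (SE 0.229, adjusted p = 0.00639), and *Flt1* was called under each of the 14 alternatives. Scaled to the 12 endothelial markers it was still lower (-0.61, adjusted p = 0.0424).

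*Kdr* (ENSMUSG00000062960, chromosome 5 from 75932827 to 75978458) encodes the receptor that carries most of the angiogenic signal. It was at 37.0 CPM in M7, 36.3 CPM in M8, 17.9 CPM in M9 and 16.9 CPM in M10, with the libraries of each genotype close together and no overlap. The log2 fold change was -1.07 (SE 0.164, adjusted p = 0.00460), and scaled to the endothelial markers it was -0.33 (adjusted p = 0.182). *Flt4* (ENSMUSG00000020357, chromosome 11 from 49609263 to 49652739), the lymphatic receptor, was at 6.42, 6.80, 3.30 and 3.32 CPM in M7 to M10. Its genotypes did not overlap, but the difference of -0.99 on the log2 scale (SE 0.330) did not pass the threshold (adjusted p = 0.0542). It passed under 9 of the 14 alternatives, among them DESeq2 size factors (adjusted p = 0.0481). It did not pass with the DESeq2 Wald test (adjusted p = 0.0570), with no filter (adjusted p = 0.0686) or scaled to endothelial markers (-0.25, adjusted p = 0.606). Nor did it pass without M7 (-1.04) or without M8 (-0.96).

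Endothelial markers were read beside the receptor kinases. Of 12 blood endothelial markers 4 were called, all lower (*Tie1*, *Tek*, *Esam* and *Plvap*), and 8 were not. Among all genes 39.4% were called, and 16.7% were called lower. The log2 fold change was below 0 for 11 of the 12 markers. Their median log2 fold change was -0.66, and those of *Pecam1* and *Eng* were -0.09 and 0.08. Per geometric mean of these markers, *Flt1* was 2.67 and 3.12 in M7 and M8 and 2.12 and 1.68 in M9 and M10. *Kdr* was 2.09 and 2.05 against 1.58 and 1.73 on the same scale. Both stood lower per geometric mean of the 12 markers in M9 and M10, although for *Kdr* the difference scaled to these markers did not pass the test. The ratio depends on the markers chosen. Of the 4 called, *Tie1* (-1.11), *Tek* (-1.60) and *Esam* (-1.06) changed about as far as *Kdr* (-1.07), and *Plvap* less (-0.71). Whether the receptors were lower per endothelial cell was not tested. The lymphatic marker *Prox1* had 24 and 34 counts in M7 and M8 and 14 and 19 in M9 and M10, and *Mmrn1* had at most 2 counts in any library. *Lyve1*, a lymphatic marker that some macrophages also express, had 900 and 652 counts in M7 and M8 and 2671 and 884 in M9 and M10 (TMM log2 fold change 1.58, adjusted p = 0.0303).

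The neuropilins went the other way with TMM normalisation, though not when libraries were scaled to macrophage or pan-leukocyte markers. *Nrp1* (ENSMUSG00000025810, chromosome 8 from 128358604 to 128503363), a co-receptor of Kdr that dendritic cells, macrophages and many stromal cells also carry, was at 42.1 CPM in M7, 34.2 CPM in M8, 95.6 CPM in M9 and 90.6 CPM in M10. Both libraries labelled SYK KO were above the others on the TMM scale but below them relative to the macrophage markers, and the TMM log2 fold change was 1.29 (SE 0.170, adjusted p = 0.00289). *Nrp2* (ENSMUSG00000025969, chromosome 1 from 62703285 to 62818695), the co-receptor of lymphatic signalling that is also found on macrophages, was at 23.5 CPM in M7, 21.8 CPM in M8, 140 CPM in M9 and 75.2 CPM in M10. Its genotypes did not overlap. The TMM log2 fold change was 2.25 (SE 0.304, adjusted p = 0.00313), the largest of the family on that scale, and it ran from 1.64 without M9 to 2.64 without M10. Scaled to the 10 macrophage markers both signs turned, to -1.48 for *Nrp1* (adjusted p = 0.00471) and -0.62 for *Nrp2* (adjusted p = 0.232).

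Macrophage markers moved beside the neuropilins. All 10 were called higher, with a median log2 fold change of 3.01 (lowest 0.57, highest 3.57), so neither neuropilin gene rose as far as the median marker. Markers of other leukocytes rose too, with 5 of 5 tested neutrophil markers (median 3.12) and 5 of 5 T cell markers (median 3.05) called higher. The neutrophil marker *Ly6g* had 2 and 0 counts in M7 and M8 and 5 and 1 in M9 and M10, and was not tested. T cell markers had 1 to 11 counts in M7 and M8, so the size of their rise is poorly measured. The neutrophil markers summed to 24.6 and 39.3 CPM in M7 and M8 and to 407 and 201 CPM in M9 and M10, and the T cell markers to 0.911 and 0.610 CPM against 6.94 and 8.83 CPM. Per geometric mean of the macrophage markers, *Nrp2* was 0.308 and 0.418 in M7 and M8 and 0.261 and 0.211 in M9 and M10. *Nrp1* was 0.551 and 0.655 against 0.178 and 0.255 on this scale. Per geometric mean of the fibroblast markers, *Nrp2* was 0.137 and 0.115 against 1.74 and 0.760. The part of these cell types in the difference was not tested. No other annotated gene shared exon bases with a member except *Mir1903*, with 80 bases of *Nrp1*.

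**Figure D3:**
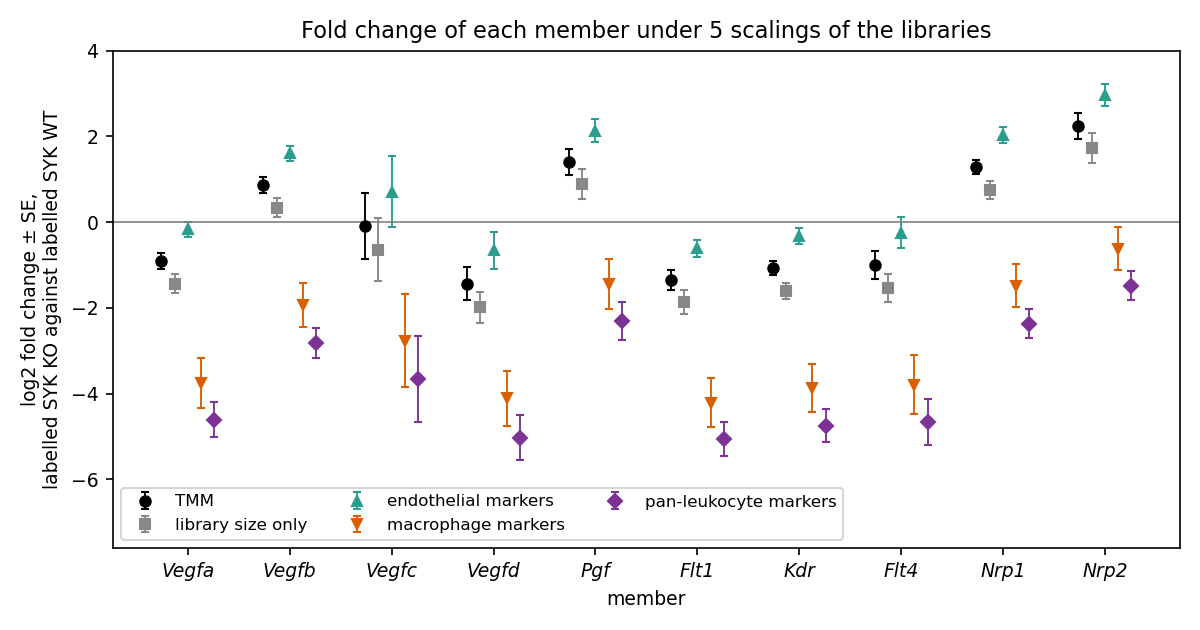
Log2 fold change of each member with its standard error under 5 scalings of the libraries, labelled SYK KO against labelled SYK WT. *Vegfa*, *Vegfd*, *Flt1*, *Kdr* and *Flt4* stayed below 0 under all 5, whereas *Vegfb*, *Pgf*, *Nrp1* and *Nrp2* were above 0 under 3 and below 0 when libraries were scaled to macrophage or pan-leukocyte markers.

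Each scaling shifts every gene of a library by the same amount. The median log2 fold change of all genes tested was -0.52 with library size only, 0.77 when scaled to endothelial markers, -2.76 when scaled to macrophage markers and -3.64 when scaled to pan-leukocyte markers. Relative to that median, *Nrp2* stood between 2.14 and 2.25 under TMM and these 4 scalings, *Nrp1* between 1.27 and 1.28, *Pgf* between 1.32 and 1.41 and *Vegfb* between 0.83 and 0.86. *Vegfa* stood between -0.98 and -0.92, *Kdr* between -1.10 and -1.09, *Flt1* between -1.45 and -1.34 and *Vegfd* between -1.47 and -1.35. The zero of each fold change therefore depended on the scaling, while a member's distance from the median of all genes moved by little. That follows from the construction of the scalings and is no test of the direction of a member. *Vegfd* was the lowest member with TMM, library size or endothelial scaling, and *Flt1* the lowest when scaled to macrophage or pan-leukocyte markers.

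To compare members with each other, levels were also expressed per kilobase of exon (RPKM, TMM-normalised). In the libraries labelled SYK WT the order was *Vegfa* at 61.5 ± 5.43 RPKM (SD, n = 2), *Vegfb* at 14.3 ± 1.31 RPKM (SD, n = 2), then *Vegfd*, *Kdr*, *Nrp1* and *Flt1* between 3.80 and 4.27 RPKM, whose neighbours overlapped. *Pgf* at 2.54 ± 0.159 RPKM (SD, n = 2), *Nrp2* at 1.91 ± 0.102 RPKM (SD, n = 2), *Flt4* at 0.802 and *Vegfc* at 0.365 RPKM followed without overlap. In the libraries labelled SYK KO, *Vegfa* at 32.7 ± 5.25 RPKM (SD, n = 2) was close to *Vegfb* at 26.0 ± 4.01 RPKM (SD, n = 2), although the 2 libraries of each did not overlap. *Nrp1* at 9.52 RPKM, *Nrp2* at 9.09 RPKM and *Pgf* at 6.74 RPKM came next, with *Nrp2* overlapping both others. *Kdr*, *Vegfd* and *Flt1* followed between 1.49 and 1.93 RPKM, again with overlapping neighbours, and *Flt4* at 0.402 RPKM overlapped with *Vegfc* at 0.346 RPKM.

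Ratios within a library do not depend on how libraries are scaled. *Vegfa* made up 71.5% and 76.6% of the summed RPKM of the 5 ligands in M7 and M8 and 48.6% and 48.5% in M9 and M10. *Vegfb* made up 18.9% and 15.7% against 38.5% and 38.8%, and *Pgf* 3.29% and 2.84% against 11.2% and 8.47%. *Vegfa* over *Vegfb* was thus 3.79 and 4.89 in the libraries labelled SYK WT and 1.26 and 1.25 in those labelled SYK KO. The shift of the ligands from *Vegfa* towards *Vegfb* and *Pgf* was larger than the spread between libraries, but with 2 libraries per genotype the smallest two-sided p of an exact permutation test is 0.333.

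Among the receptors, the neuropilins together made up 42.9% and 37.4% of the summed RPKM in M7 and M8 and 83.8% and 81.8% in M9 and M10. *Nrp1* over *Kdr* was 1.05 and 0.871 in the libraries labelled SYK WT and 4.92 and 4.95 in those labelled SYK KO, with close agreement between the libraries of a genotype. *Flt1* over *Kdr* was 0.853 and 1.02 against 0.895 and 0.647, with overlap between genotypes. *Nrp2* over *Nrp1* was 0.462 and 0.527 against 1.21 and 0.686. The neuropilins thus took a larger part of the receptor transcripts in M9 and M10, by more than the spread between libraries, under the same limit of the exact test.

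**Figure D4:**
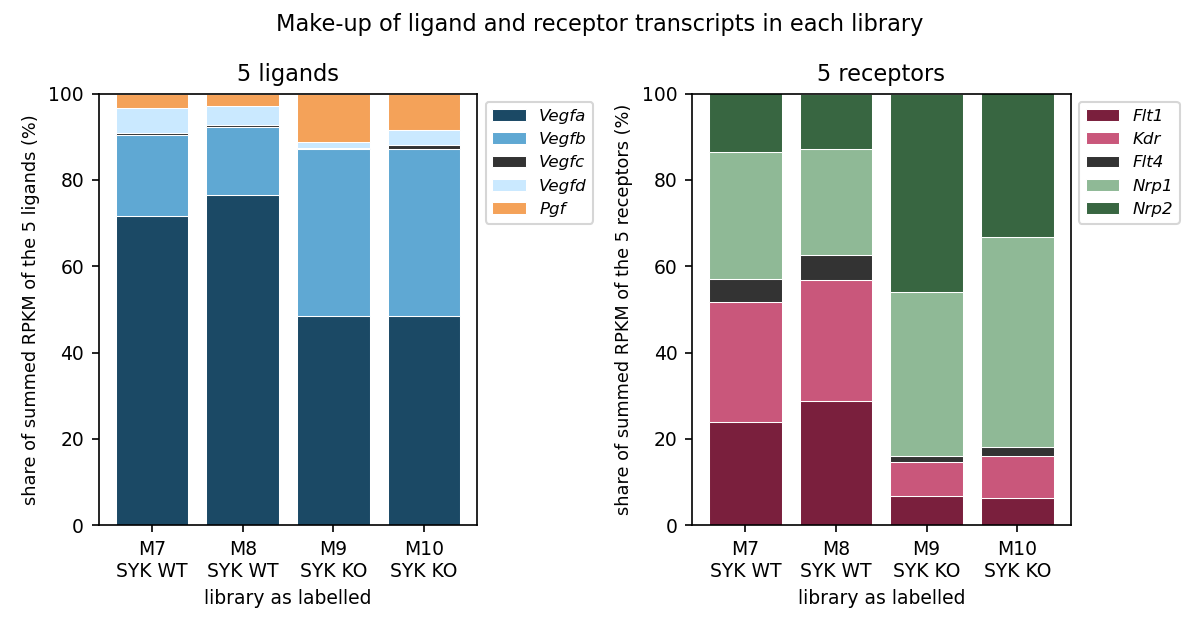
Share of each gene in the summed RPKM of the 5 ligands (left) and the 5 receptors (right), in percent, with 1 stacked bar per library as labelled. *Vegfa* made up at least 71.5% of the ligands in M7 and M8 and at most 48.6% in M9 and M10, and the neuropilins at most 42.9% and at least 81.8% of the receptors, whatever the scaling of the libraries.

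Genes that act with the family were read next, from lists described by their counts with TMM normalisation beside the 39.4% called among all genes. Counts of a list under another scaling are to be read beside those of all 16451 genes tested under that scaling. These were 1677 higher and 5411 lower with library size only and 7716 and 813 when scaled to endothelial markers. Scaled to macrophage markers they were 131 and 14328. Of 25 genes of VEGF receptor signalling, 7 were higher, 5 lower and 13 not called, with a median log2 fold change of 0.17. *Plcg1*, the phospholipase that binds activated Kdr, was at 207 and 210 CPM in M7 and M8 and at 67.9 and 75.5 CPM in M9 and M10, a log2 fold change of -1.54 (adjusted p = 0.00148). *Sphk1*, the sphingosine kinase, changed by -2.32 (adjusted p = 0.000834). *Mapk3*, the kinase Erk1, was higher by 1.27 (adjusted p = 0.00413) and *Pxn*, the adhesion adaptor paxillin, by 1.08 (adjusted p = 0.00780), but both were lower when scaled to macrophage markers (-1.55 and -1.75), and the call of *Pxn* was lost with library size only (0.56, adjusted p = 0.101). The list had 1 gene higher and 7 lower with library size only, 17 higher and 2 lower when scaled to endothelial markers, and 0 higher and 25 lower when scaled to macrophage markers.

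Genes for the release and maturation of VEGF ligands changed in both directions. Of 15 genes 13 were tested, with 4 higher, 4 lower and a median of -0.26, with 3 higher and 8 lower for library size only and 5 higher and 4 lower for the endothelial scaling. *Ccbe1*, which helps mature VEGF-C, was at 79.9 and 76.7 CPM in M7 and M8 and at 14.7 and 15.04 CPM in M9 and M10, a log2 fold change of -2.40 (adjusted p = 0.000652). *Adamts1*, a matrix protease, changed by -2.48 (adjusted p = 0.000941). *Plau*, the urokinase, was higher by 2.85 (adjusted p = 0.00237), with 0.03 when scaled to macrophage markers and -0.85 when scaled to pan-leukocyte markers. *Ctsd*, the lysosomal cathepsin D, was higher by 2.02 (adjusted p = 0.00521) and lower when scaled to macrophage markers (-0.84, adjusted p = 0.134). *Adamts3*, the protease that cleaves VEGF-C, had at most 3 counts in any library and was not tested.

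Partners of neuropilins in axon and vessel guidance were read as a list. Of 12 secreted semaphorin and plexin genes, 6 were called lower, 2 higher and 4 not called, and the median log2 fold change was -1.18. With library size only, 10 were lower and 1 higher, and scaled to endothelial markers 2 were lower and 2 higher. *Sema3f*, a ligand of Nrp2, was at 22.6 and 27.3 CPM in M7 and M8 and at 8.79 and 8.77 CPM in M9 and M10 (adjusted p = 0.00365), and the plexin genes *Plxna2* and *Plxna3* changed by -1.47 (adjusted p = 0.0256) and -1.66 (adjusted p = 0.0326). Both plexin calls were lost when scaled to endothelial markers (-0.70, adjusted p = 0.234, and -0.87, adjusted p = 0.213). *Plxna4* was higher at low levels, from 0.656 and 0.977 CPM in M7 and M8 to 3.50 and 4.14 CPM in M9 and M10 (log2 fold change 2.22, adjusted p = 0.0161), although lower when scaled to macrophage markers (-0.58). Fibroblast markers, 5 of 8 of which were called lower, and pericyte markers, 5 of 7, moved with these genes.

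HIF, which drives *Vegfa* in hypoxia, and its other targets did not move as one group. Of 9 regulators of *Vegfa*, 2 were called, both lower, with a median of 0.01. With library size only 0 were higher and 4 lower, and scaled to endothelial markers 5 were higher and 0 lower. Scaled to macrophage markers 0 were higher and 9 lower, where 14328 of all 16451 genes tested were lower. *Epas1*, the HIF subunit of endothelium and macrophages, was at 39.2 CPM in each library labelled SYK WT and at 16.7 and 17.0 CPM in M9 and M10, a log2 fold change of -1.22 (adjusted p = 0.00294) that was -0.47 (adjusted p = 0.0799) when scaled to endothelial markers. *Arnt*, the common HIF partner, changed by -0.67 (adjusted p = 0.0170), and by 0.08 with the endothelial scaling. The log2 fold change of *Hif1a* was 0.18 (adjusted p = 0.489).

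Of 20 HIF target genes, 5 were higher, 5 lower and 10 not called, with a median of 0.36. *Car9*, the tumor carbonic anhydrase, was at 75.9 and 101 CPM in M7 and M8 and at 16.7 and 18.0 CPM in M9 and M10, a log2 fold change of -2.35 (adjusted p = 0.000898). *Vldlr*, a lipoprotein receptor, and *Kdm3a*, a histone demethylase, were also lower, by -2.93 (adjusted p = 0.00140) and -1.67 (adjusted p = 0.00219). *Adm*, which encodes the vasoactive peptide adrenomedullin, was higher by 1.61 (adjusted p = 0.00794) but lower when scaled to macrophage markers (-1.27). *Vegfa* thus lay on the side of *Car9* and *Kdm3a* and not on that of *Adm*. Of the 20 targets, 14 had a log2 fold change above 0 with TMM normalisation and 6 below, so *Vegfa* lay with the smaller part. With library size only, 1 target was higher and 6 were lower. Scaled to endothelial markers 14 were higher and 3 lower, where 7716 and 813 of all 16451 genes tested were. Scaled to macrophage markers 0 were higher and 20 lower, where 14328 of all genes tested were lower.

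Among other angiogenic factors, 1 of 10 tested was called, *Fgf2*, the basic fibroblast growth factor, lower by a log2 fold change of -1.87 (adjusted p = 0.00351), and the median was -0.24. With library size only 0 were higher and 4 lower, and with the endothelial scaling 1 was higher and 1 lower. Of 8 tested inhibitors of angiogenesis, 4 were lower and 2 higher with a median of -0.46, with 4 lower and 1 higher for library size only and 2 lower and 3 higher for the endothelial scaling. *Thbs2* and *Thbs1* encode thrombospondins and moved apart, with log2 fold changes of -2.55 (adjusted p = 0.00161) and 1.12 (adjusted p = 0.0415), the second being lower when scaled to macrophage markers (-1.79) and not called with library size only (0.61, adjusted p = 0.230). *Timp3*, a protease inhibitor that blocks Kdr, changed by -2.26 (adjusted p = 0.000996). *Pf4*, the chemokine platelet factor, was at 48.4 and 34.8 CPM in M7 and M8 and at 544 and 215 CPM in M9 and M10, a log2 fold change of 3.19 (adjusted p = 0.00380) that was 0.31 when scaled to macrophage markers and -0.55 when scaled to pan-leukocyte markers.

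Genes with a pattern most like that of a member were sought among 12932 protein-coding genes, by the distance between log2 CPM profiles centred on their mean over 4 libraries. The nearest to *Vegfa* were *Rpl12*, *Cacnb4* and *Acp6*, at distances of 0.039 to 0.054, and to *Vegfb* *Ly6a*, *H2afj* and *Hgsnat*, at 0.016 to 0.033. Those of *Flt1* were *Vmp1*, *Arhgap28* and *Daam2*, and those of *Kdr* were *Efhb*, *Tcta* and *Qpct*. *Nrp1* had *Pdia4*, *Ndufv2* and *Map4k1* as neighbours and *Nrp2* had *Kcnj10*, *Ftl1* and *Rgcc*. With 4 libraries many profiles lie close to any gene.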

How the data were processed

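RNA sequencing of 4 polyA-selected libraries labelled as TAMs was analysed, grouped by GEO's labels. The authors deposited whole-number read counts per Ensembl gene, not normalized. The submitters' processing notes name mm10, STAR 2.6.1d, Salmon 1.4.0, Picard 2.26, SAMtools 1.9 and MultiQC 1.11. How whole numbers were made from Salmon's estimates is not given in the sources used here. The paper's methods describe single reads in triplicate, and the labels paired reads and 2 libraries per genotype.

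Counts were analysed in R 4.3.3 with edgeR 4.0.16: filterByExpr, TMM factors (1.22, 1.19, 0.876 and 0.787 for M7 to M10), then glmQLFit and glmQLFTest with genotype as the only term, Benjamini-Hochberg adjustment and a threshold of 0.05. Standard errors were derived from the F statistic. Symbols, positions and summed exon lengths came from GENCODE M21 (GRCm38), which matched 54495 of 54532 genes, and promoters from RefSeq on GRCm38.p6. Where a symbol had a second Ensembl gene, the one with more counts was used (1 symbol). Counts of the libraries of a genotype differed by more than sampling noise (chi-square per degree of freedom 50.6 and 168). The labels give no batch or pairing. The code was tested on simulated data.

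The members and gene lists were chosen with earlier results of these data known. From each pathway list up to 4 genes were named, ranked by absolute fold change, which had to have an adjusted p under 0.05, a mean of at least 1 CPM and no overlap between genotypes. Single markers, *Hif1a* and *Adamts3* were named after their values were seen. For 6 members the 3 nearest profiles were named. Alternatives were DESeq2 1.42.0 size factors or its Wald test, library size only, scaling to marker genes (pseudocount 0.5 counts), other filters, leaving out mitochondrial and ribosomal RNA genes, and each library left out in turn. A pseudocount of 0.5 CPM was used for profile distances.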

Additional observations from a re-analysis of the deposited data

How the results depend on the processing

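The signs of *Vegfa*, *Vegfd*, *Flt1*, *Kdr* and *Flt4* were the same in all 14 alternatives, while the other members depended on the scaling. Library size only gave 1677 genes higher and 5411 lower over all genes, with 2 VEGF members higher. Scaling to 10 macrophage markers gave 131 higher and 14328 lower, with 0 members higher and 9 lower, and scaling to 6 pan-leukocyte markers gave 51 and 15293, with 0 and 10. Scaling to 12 blood endothelial markers gave 7716 and 813, with 1 member lower. The fold changes that turned sign under macrophage and pan-leukocyte scaling were those of *Vegfb* (-1.94 and -2.82), *Pgf* (-1.44 and -2.30), *Nrp1* (-1.48 and -2.37) and *Nrp2* (-0.62 and -1.48), and that of *Vegfc* was 0.71 under endothelial scaling. The construction of these scalings, which set the markers near 0, moves every gene. With each library left out in turn, between 1478 and 5010 genes were higher and between 807 and 4745 lower, between 2 and 4 members were higher and between 2 and 5 lower, and *Vegfc* ran from -1.18 to 0.46. The fewest calls came without M8 (1478 higher and 807 lower), and the cause was not tested. A library left alone in its genotype was assumed to vary like the others. Leaving out annotated ribosomal RNA genes as well, an alternative chosen after seeing the data, gave 4 members higher and 5 lower. Other filters, leaving out mitochondrial and ribosomal RNA-like genes, DESeq2 size factors and the DESeq2 Wald test gave 4 higher and 4 or 5 lower, and with at least 10 counts in every library *Vegfc* was not tested. Depth limits *Vegfc* most, with 8 to 26 counts per library.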
